A study of Drosophila melanogaster with 2 samples.

Results

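Hr96 is a nuclear receptor of Drosophila melanogaster, and 620 of the 3607 peaks (17.2%, exact 95% interval 16.0% to 18.5%) in the deposited list of peaks that passed a test of reproducibility (IDR) lay on the X chromosome. They were taken as every peak of that list whose chromosome field named the X in build dm6, and they are set beside the 2987 peaks of chromosomes 2, 3 and 4 in the same list. The data came from ChIP-seq, in which DNA bound by a protein is precipitated and sequenced, on whole adult female flies of a transgenic line that carries Hr96 with GFP fused to its C terminus. Chromatin was sonicated and precipitated with an antibody to GFP, although the antibody field of the labels names Hr96, and the age of the flies is given as unknown. There was 1 group of 2 biological replicates, numbered 1 and 3, from the same line, and no second condition. Every site is therefore one of the tagged protein in this line, averaged over all tissues of the female, and no sample without the tag was analysed here.

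Nuclear receptors are transcription factors that bind DNA through paired zinc fingers and often respond to a lipid or steroid ligand. Hr96 binds cholesterol and is known for its part in sterol and triacylglycerol balance and in resistance to toxins in the fly gut. The fly X carries genes of every function; males have a single copy, whose output the dosage compensation complex raises, whereas females, the sex assayed here, carry a pair of X chromosomes, as of each autosome, and do not assemble that complex.

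Some of the strong X summits are shown as DNA, as examples for the words described further on. Each line is a summit with 100 bp to either side on the plus strand of dm6, read from the RefSeq assembly and written 5′ to 3′. Capitals mark CCACTGT or its reverse complement, the palindrome TATCGATA (the DRE), AGTGCA and AGGTCA on either strand. The first 3 are the strongest summits inside introns, and they held none of these words. Gapdh2 has the strongest X promoter summit whose window holds no annotated untranslated region. The last 5 were chosen to show CCACTGT at strong summits, so the windows printed here do not show its share. It was in 15 of the 50 strongest X windows.
Tlk intron, chrX:3742131-3742331: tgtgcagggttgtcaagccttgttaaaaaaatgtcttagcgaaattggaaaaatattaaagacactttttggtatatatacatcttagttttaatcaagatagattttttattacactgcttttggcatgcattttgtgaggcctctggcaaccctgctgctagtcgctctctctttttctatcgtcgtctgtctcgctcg
CG32772 intron, chrX:4910280-4910480: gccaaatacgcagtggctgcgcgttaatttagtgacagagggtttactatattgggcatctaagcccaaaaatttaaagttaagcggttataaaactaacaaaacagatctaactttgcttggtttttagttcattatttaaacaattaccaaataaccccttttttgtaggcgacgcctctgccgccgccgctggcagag
norpA intron, chrX:4324869-4325069: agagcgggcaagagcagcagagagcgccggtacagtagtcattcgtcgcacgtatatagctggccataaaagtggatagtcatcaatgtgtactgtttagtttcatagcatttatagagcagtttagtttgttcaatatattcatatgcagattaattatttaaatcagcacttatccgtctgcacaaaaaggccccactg
Gapdh2 promoter, chrX:15867887-15868087: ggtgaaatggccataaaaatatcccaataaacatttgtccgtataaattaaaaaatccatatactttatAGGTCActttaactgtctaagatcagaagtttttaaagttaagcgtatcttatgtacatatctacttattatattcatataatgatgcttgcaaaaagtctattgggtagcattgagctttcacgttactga
bbx promoter, chrX:21367701-21367901: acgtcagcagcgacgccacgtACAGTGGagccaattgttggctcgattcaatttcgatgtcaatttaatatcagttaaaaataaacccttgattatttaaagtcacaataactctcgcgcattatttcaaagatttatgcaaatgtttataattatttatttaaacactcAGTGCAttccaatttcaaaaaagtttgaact
Zw intron, chrX:19668495-19668695: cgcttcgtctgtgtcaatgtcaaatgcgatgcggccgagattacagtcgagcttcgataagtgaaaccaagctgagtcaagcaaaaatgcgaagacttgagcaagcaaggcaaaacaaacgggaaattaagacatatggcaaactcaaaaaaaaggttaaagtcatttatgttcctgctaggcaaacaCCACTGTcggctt
Tob intron, chrX:16090269-16090469: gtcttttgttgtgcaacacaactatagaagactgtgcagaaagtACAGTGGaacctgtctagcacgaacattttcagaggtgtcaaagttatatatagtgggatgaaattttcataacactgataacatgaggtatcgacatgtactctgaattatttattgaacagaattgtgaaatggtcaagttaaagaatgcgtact
mnb intron, chrX:17880382-17880582: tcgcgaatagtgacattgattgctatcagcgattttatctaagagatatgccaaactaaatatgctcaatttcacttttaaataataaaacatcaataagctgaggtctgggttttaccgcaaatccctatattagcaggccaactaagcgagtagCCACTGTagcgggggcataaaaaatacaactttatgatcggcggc
Promoter between Rtel1 and IntS6, chrX:5747566-5747766: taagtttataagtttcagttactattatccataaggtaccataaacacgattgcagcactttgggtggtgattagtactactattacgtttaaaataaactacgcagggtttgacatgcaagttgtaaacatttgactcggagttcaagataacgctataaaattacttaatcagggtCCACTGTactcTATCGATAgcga

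In none of these 9 windows except that between Rtel1 and IntS6 was a DRE present, and in that window the DRE stood a few letters from CCACTGT. The CCACTGT matches lay towards the edges of the windows rather than at the summit in the middle.

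The X held more of the strong Hr96 peaks than of the weak ones. When the 3607 peaks were ranked by signal, which is the authors' own enrichment value per peak, and divided into 5 equal rank groups, 169 of the 721 strongest were on the X (23.4%, exact 95% interval 20.4% to 26.7%). The X share was 16.5% in group 2, 17.3% in group 3 and 15.4% in group 4. In the weakest group it was 13.3% (10.9% to 16.0%). The X makes up 17.6% of the length of the 6 chromosome arms, so it exceeded its length share in the strongest group and fell short of it in the weakest. The intervals cover counting error over peaks, which are not replicates, so differences between the X and the autosomes are descriptions with no test.

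**Figure D1:**
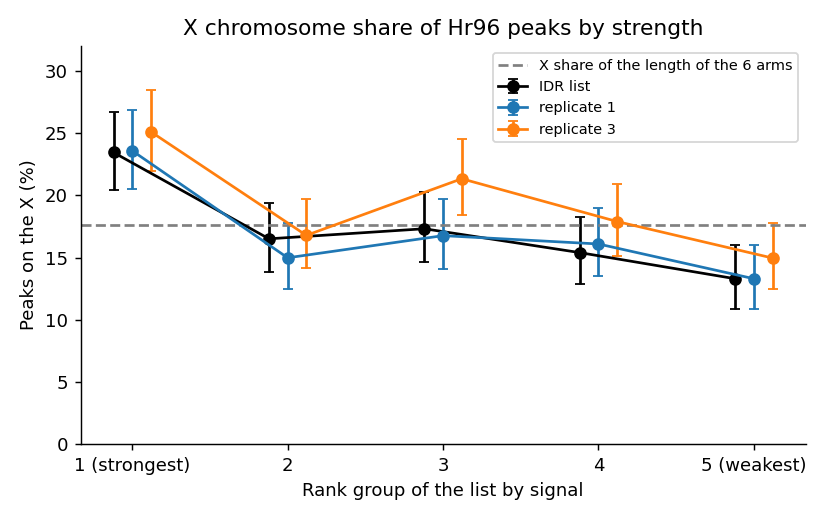
The plot gives the percentage of peaks on the X (vertical axis) in each rank group of 3 lists ranked by signal (horizontal axis), with exact 95% intervals as bars. Replicate lists were taken to the length of the IDR list. The dashed line is the X share of length, 17.6%; in all 3 lists the strongest rank group lies above it, at 23.4%, 23.6% and 25.1%.

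Both replicates showed this order at the top. Among the strongest 3607 peaks of replicate 1 the X share was 23.6% in the strongest rank group and 13.3% in the weakest. In replicate 3 it was 25.1% and 14.96%. Below this range the X share was lower still: among peaks ranked after the first 3607 and up to place 15000 it was 7.29% in replicate 1 and 11.5% in replicate 3. Among the 50 strongest peaks the X had 12 in replicate 1 and 13 in replicate 3. The plot of X share by rank group shows that the excess sat in the strongest rank group, and that the 4 weaker rank groups ran near or under the length share except rank group 3 of replicate 3 at 21.3%.

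Signal itself was spread further upwards on the X. The median X peak had a signal of 113.7, against 100.2 on the autosomes and 98.5 to 101.7 on the 4 long autosomal arms (2L, 2R, 3L and 3R). The upper quartile was 211.3 on the X and 153.4 to 175.9 on those arms. By position, the median X signal was 1.17 times the autosomal one at promoters, 1.24 times in introns and 1.11 times between genes. The X had 26.34 peaks per Mb, within the 26.005 to 28.274 of the long autosomal arms, a density like that of the autosomes. It had 93.3 protein-coding genes per Mb, fewer than the 97.4 to 113.0 of those arms, and 28.2 peaks per 100 genes against 24.2 to 26.7.

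Of the X peaks, 477 of 620 (76.9%, exact 95% interval 73.4% to 80.2%) had a summit within 100 bp in both replicate lists, beside 80.1% over the whole list and 80.7% on the autosomes. Only 9 X peaks had one in neither. Each replicate list held 30000 peaks, so a match could be to a weak peak. With only the strongest 3607 peaks of each replicate, the share matched in both was 50.5% on the X and 50.8% on the autosomes. In the strongest rank group the share matched in the full replicate lists was 86.4% on the X and 94.6% on the autosomes. Signals of replicate 1 exceeded those of replicate 3, with a median log2 ratio of 1.05 over the 477 matched X peaks (SD 0.82), and the ranks followed each other with a Spearman rho of 0.66 across peaks, which share libraries and are no independent points.

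**Figure D2:**
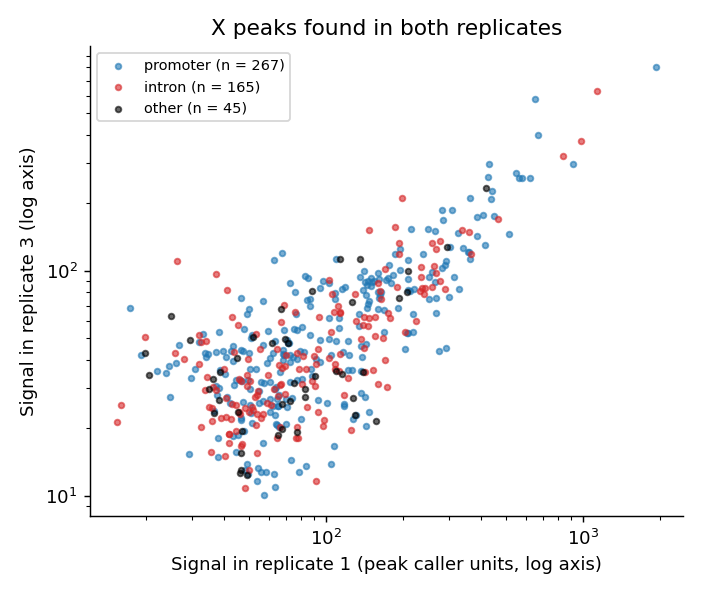
Each point is an X peak found in both replicates, with its signal in replicate 1 on the horizontal and in replicate 3 on the vertical axis (both log axes, peak caller units). Colours separate promoter (267), intron (165) and other (45) summits. Among these matched peaks the strongest, promoter and intron alike, are strong in both replicates. Peaks that lack a match in 1 or both replicates do not appear.

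Behind the strongest X peaks stood single sites of several kinds. The highest signal of the whole list was at the promoter of Ugalt, which carries UDP-galactose into the Golgi, with 2692 in the IDR list, 1914 in replicate 1 and 801.3 in replicate 3; it ranked first in all 3. The next X peak lay in the first intron of Tlk (Tousled-like kinase, a chromatin assembly kinase), 2334 bp from a start site, with 1758, 1133 and 626.9. Both are far above the X median in either replicate. The intron of CG32772 followed with 1346, 979.1 and 375.2, at 1278 bp from its start. This gene also had a promoter peak of 471.8 whose summit was 1255 bp away.

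Enzymes of glucose metabolism had 3 of the 20 strongest. Gapdh2, a glycolytic dehydrogenase, had 1244 in the IDR list at 158 bp from its start, with 651.7 in replicate 1 and 580.6 in replicate 3. Hex-A, a hexokinase, had 816.4, 549.0 and 271.0. Zw, the glucose-6-phosphate dehydrogenase that opens the pentose phosphate pathway, had 642.4, 466.4 and 169.4 at a summit in its first intron. These genes are named because of their rank, and no test of the pathway was made. The antisense RNA asRNA:CR44512 has the start nearest to the Zw summit, at 849 bp, and ChIP does not tell to which of the genes a site belongs.

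The other single genes among the 20 had various roles. The first intron of norpA, the phospholipase C of phototransduction, had 1148 in the IDR list, 833.1 in replicate 1 and 323.3 in replicate 3. A promoter of bbx, an HMG-box factor annotated over the same bases and strand as the gene waw, had 1068, 670.2 and 402.4. That of moody, a receptor of the blood-brain barrier, had 874.2, 619.0 and 257.5 and lay inside CG4313. The promoter of elav, the RNA-binding protein of neurons, had 688.9, 425.4 and 261.9. In each of these the replicates ranked the site within their first 64 peaks.

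Ptpmeg2, a protein tyrosine phosphatase, held 2 of the 20, at separate promoters with signals of 841.5 and 668.0 and summits 5299 bp apart. A pair of peaks with summits only 943 bp apart, with signals of 1207 and 647.8, was closest to the start of the non-coding RNA lncRNA:CR44619, the stronger one inside lncRNA:Vinr. The promoter of ph-p, a Polycomb group protein, had 718.4 in the IDR list, 432.0 in replicate 1 and 296.5 in replicate 3. Since ph-p and its neighbour ph-d are near-identical copies, reads at either may not be placed with certainty. The rest of the 20 were promoters of MFS10 (820.2), TRAM (665.0, a protein of translocation into the endoplasmic reticulum), RpS28b (629.8) and the region near bves and Stt3A (583.8, an oligosaccharyltransferase subunit), and a summit in the 3′ UTR of stas (639.5).

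Away from start sites, the intron summit next in strength after Zw was in Tob (515.3 in the IDR list, 361.3 in replicate 1 and 148.4 in replicate 3), an antiproliferative factor. Between genes, the strongest was 1679 bp from the start of Myc, the growth regulator, with 307.3, 207.8 and 99.2. It was followed by one 1886 bp from Atf3, a stress-responsive factor, with 284.1, 206.6 and 80.5. The third, with 273.7, lay 3561 bp from lncRNA:CR44619. Intergenic X summits thus stayed well under the strongest promoter and intron summits.

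A larger share of X summits than of autosomal ones lay in introns, and a smaller share at promoters. Within 500 bp of an annotated transcription start site (TSS), here called a promoter, were 350 of 620 X summits (56.5%, exact 95% interval 52.4% to 60.4%), beside 64.5% over the whole list, 66.1% on the autosomes and 63.5% to 67.9% on the long autosomal arms. Introns farther than that from any TSS held 208 X summits (33.5%, 29.8% to 37.4%), beside 25.6% over the whole list, 23.9% on the autosomes and 23.3% to 25.1% on those arms. Introns make up 43.3% of X bases and 38.6% of autosomal ones, and the part of this in the counts was not tested. Intergenic summits were 6.45% on the X and 7.30% on the autosomes.

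The intron share also differed among strong peaks. In the strongest rank group 52 of 169 X summits were intronic (30.8%, 23.9% to 38.3%) against 80 of 552 autosomal ones (14.5%). In replicate 1 the same shares were 30.6% and 14.3%, and in replicate 3 they were 27.6% and 15.7%. Replicate 3 had a wider gap in rank group 2, with 38.8% and 19.5%, and the opposite order in rank group 3, with 24.0% and 27.8%. Among the 50 strongest of each set the counts were closer, with 12 and 10 intronic summits, so the difference did not rest on the very top. X intron summits were in a first intron in 146 of 208 cases (70.2%), autosomal ones in 77.3%.

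**Figure D3:**
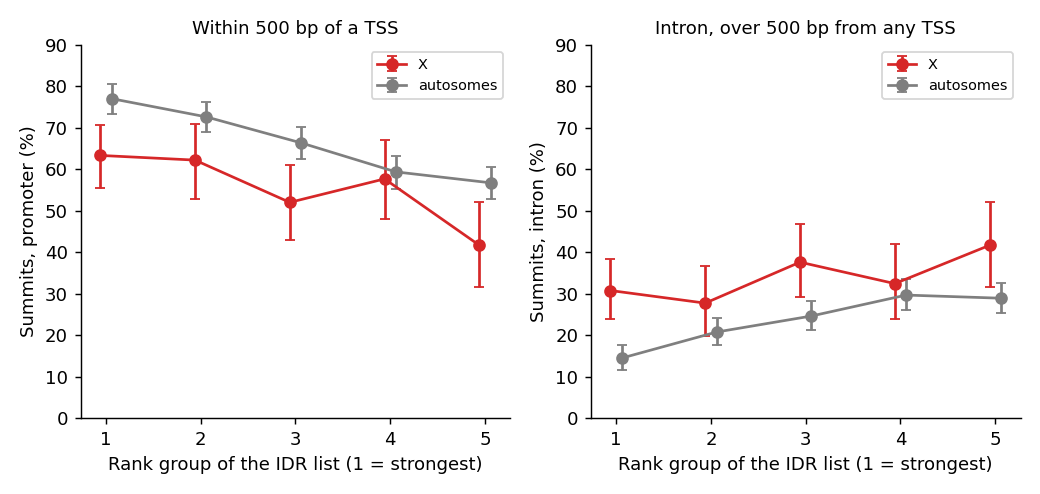
Percentage of summits at promoters (left) and in introns (right) in each rank group of the IDR list ranked by signal, for the X and the autosomes, with exact 95% intervals. Promoter shares are lower in the weakest than in the strongest rank group in both sets, at 41.7% and 63.3% on the X and 56.7% and 77.0% on the autosomes. Intron shares lie between 27.7% and 41.7% on the X and between 14.5% and 29.7% on the autosomes.

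Promoter summits on the X were also arranged differently. Their median distance to the TSS was 155 bp, against 96 bp on the autosomes. Protein-coding starts on both strands were in reach of 64 of 326 X promoter summits with any such start (19.6%) and of 610 of 1891 autosomal ones (32.3%). In the strongest rank group these shares were 18.6% and 45.4%. Most strong promoter peaks of both sets thus had such starts on 1 strand only, and on the X this was so more often. The share over all promoters is not given here, and the part of gene layout in these values was not tested.

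Counted by genes, 323 of 2196 protein-coding X genes (14.7%, exact 95% interval 13.3% to 16.3%) had a summit within 500 bp of a TSS, beside 18.1% over all genes and 18.8% on the autosomes. The share was 17.4% to 20.3% on the long autosomal arms. Without replicate 1, that is, in the strongest peaks of replicate 3, the shares were 17.6% and 18.6% and thus nearly met. Bound X genes had a mean of 2.12 start sites and the others 1.40, so genes with several starts had more chances to be counted.

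Genes of cytosolic ribosomal proteins, which build the ribosome, were bound most often among the 11 gene lists examined on the X. Of the 14 X genes in the list, 12 had a summit within 500 bp of a start, beside the 18.1% of all genes. Their strongest were RpS28b (629.8 in the IDR list, 450.7 in replicate 1 and 174.2 in replicate 3), RpS5a (412.9, 315.6 and 94.1), RpS10b (408.6, 293.5 and 110.6) and RpL22 (377.2, 282.2 and 102.4). The 12 summits lay within 66 bp of a start. A further X gene, RpL37-1, was not in the list because of its hyphenated name and had a promoter summit of 168.9, 137.0 and 28.5. RpL36 and RpS14a had none, and RpS14a and RpS14b are near-identical neighbours, so that the assignment of reads between them is uncertain.

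The list named for sterol and lipid genes, the field Hr96 is known for, had 8 of 14 X members bound at a start. Those bound were 57.1% (exact interval 28.9% to 82.3%), beside the 18.1% of all genes. They included eas, an ethanolamine kinase (204.3 in the IDR list and 68.0 in replicate 3, with no matched summit in replicate 1), Zw at its own promoter (193.6, 115.5 and 83.2), the phosphatidylinositol transfer protein rdgB (185.6, and 89.0 in replicate 3, with none matched in replicate 1) and the lipid droplet protein Lsd-2 (112.0, 63.5 and 48.9). Of the other bound members, sws had no matched summit in replicate 1 and Pgd none in replicate 3. The list was loosely drawn, since Zw, named above for the pentose phosphate pathway, was among the bound members. Whether the count reflects the known role of Hr96 was not tested. Npc1b, the gut sterol transporter, was not bound and its nearest summit was 93431 bp away. These start-site summits were weaker than those of the ribosomal protein genes named above. Inside the genes, stronger summits lay in Zw (642.4, the intron summit described above) and in Lsd-2 (317.9).

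Of the 2 nuclear receptor genes on the X, usp, the partner of the ecdysone receptor, had a promoter summit of 289.9 in the IDR list, 211.8 in replicate 1 and 81.3 in replicate 3. Hr4, an ecdysone-induced receptor, had no summit within 500 bp of a start but 6 peaks inside the gene, the strongest an intron summit of 397.2, 257.4 and 133.4. A rule based on start sites alone leaves such genes out.

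Chromatin and insulator factors had 6 of 18 X members bound, led by ph-p (718.4), the SWI/SNF subunit Bap60 (318.5), ph-d (304.0) and Tlk at its own promoter (127.1). Of these, ph-d had no matched summit in replicate 3 and the Tlk promoter none in replicate 1. Circadian genes had 2 of 4, the kinase sgg (347.6) and the clock gene per (248.6); CkIIbeta and norpA had none within reach of a start. Of dosage compensation genes, Sxl, which keeps the complex from forming in females, had a summit of 139.7, and the acetyltransferase gene mof had none. The list did not hold lncRNA:roX1, an RNA of the complex made in males, whose start was 41 bp from a weak summit with 63.5 in the IDR list, 45.4 in replicate 1 and 18.5 in replicate 3. Sxl and the splicing factor gene snf (86.3) were the 2 bound of 6 sex determination genes, and run, sisA, sc and upd1 were not bound. In these lists the counts were too small to set against 18.1%.

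Neuronal genes had 4 of 13 X members bound (30.8%, exact interval 9.09% to 61.4%), beside the 18.1% of all genes. They were elav (688.9), rdgB (185.6), slgA (179.9), a proline dehydrogenase, and Appl (70.8), the amyloid precursor protein homologue. Oogenesis and early embryo genes had 3 of 26, egh (332.0), Top1 (100.9), a topoisomerase, and snf (86.3). Of these, egh had no matched summit in replicate 1. The list named for Notch signalling was loosely drawn, since its member wapl also stood on the chromatin and insulator list. It had 1 of 4 bound, the LIM protein gene Bx, with 61.3, 47.7 in replicate 1 and no match in replicate 3. N, the Notch gene itself, was not bound, nor were dx and wapl. Genes known from classical visible mutants had 4 of 32, cm (299.5), mal (207.0), ras (87.9) and oc (68.0). Neither mal nor oc had a matched summit in replicate 3. The oogenesis and visible mutant shares were under that of all genes, at 11.5% and 12.5%, and the neuronal and Notch shares were above it. The exact intervals of all these lists included 18.1%, so the counts were too small to set against it.

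X peaks came in local runs, and runs were not listed for the autosomes. The median distance between neighbouring X summits was 9248 bp (interval of the median 6869 to 12543), against 10204 to 13054.5 bp on the long autosomal arms. Of 619 neighbour pairs 108 (17.4%) were less than 1000 bp apart, against 12.1% to 16.1% on those arms. In the dm3 list the median distance was 10770 bp on the X and 11323 bp on the autosomes, so the gap was smaller there. In 51 cases (8.24% of neighbour pairs) an X peak overlapped an earlier one, so close members are not separate in sequence. On the autosomes this share was 6.74%.

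The densest run lay in CHES-1-like, a forkhead transcription factor gene, where 16 summits stood within 18800 bp, no neighbour more than 5 kb from the next. The gene itself held 15 of them, 12 in introns. The strongest, near a start, had 569.3 in the IDR list, 363.1 in replicate 1 and 209.9 in replicate 3, and the weakest 63.6 with 45.4 in replicate 1 and no match in replicate 3. Without the CHES-1-like region the X median distance was 10000 bp, close to the lowest autosomal arm, and the intron share 32.5%. Further runs held 8 summits at Lsd-2, CG15027, Cox17 and Dbct, 7 at Hex-A and LPCAT, 7 at CG2865 and Raf, and 6 in introns of Mnt.

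By genes, 440 protein-coding X genes had at least 1 summit inside them or within 500 bp of their ends, 169 at least 2 and 66 at least 3. After CHES-1-like came CG1677 with 11, the adhesion gene kirre with 8, and Tlk and CG43658 with 7 each. These are long genes: CG1677 covers 124709 bp and kirre 394149 bp, whereas CHES-1-like covers 27048 bp. Along the chromosome the 23 full bins of 1 Mb held 0 to 52 summits with a median of 26. The longest stretch with none ran for 1380828 bp towards the centromere, from 21630027 to 23010855, and enclosed 46 genes and 65 peaks of the authors' longer list for both replicates together, none of which was in the IDR list.

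Words known from fly promoters were a small part of X summits. The DRE (TATCGATA), the site of the factor Dref, was in 29 of 620 windows of 100 bp to either side of the summit (4.68%), beside 4.46% over the whole list, 4.42% on the autosomes and 1.05% in flanks centred 1000 bp away. Over all X TSS windows of that length it was 9.44%. GGTCACAC, the site of M1BP, was in 1.77% (2.77% over the whole list, 5.83% of X TSS windows). The CTCF core AGNNGGCGC was in 3.71% (4.38% over the whole list, 2.29% of X TSS windows). All words were searched on both strands.

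The GA repeat (GAGAGAGA) and the CA repeat (CACACACA) were in X summit windows at shares near those of X flanks. GAGAGAGA was in 4.52% of X windows (3.47% over the whole list, 3.25% on the autosomes) but also in 3.71% of X flanks and 2.21% of autosomal flanks. Over whole chromosomes it had 226.6 matches per Mb on the X and 115.8 to 123.0 on the long autosomal arms. It contains the shorter GAGAG, which was in 30.3% of X windows (30% over the whole list). CACACACA was in 5.81% (6.04% over the whole list) and in 6.37% of X flanks. Its density was 993.1 per Mb on the X and 437.9 to 526.8 on the long autosomal arms. The E-box CACGTG was in 1.77% (2.55% over the whole list, 3.06% of X flanks). The paired site of BEAF (CGATA repeated after 6 letters) was in 4 windows (0.645%), beside 0.471% over the whole list and 0.0806% of X flanks. Over all X TSS windows GAGAGAGA was in 2.63%, GAGAG in 24.6%, CACACACA in 5.65%, CACGTG in 4.27% and the BEAF pair in 1.34%.

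AGGTCA, the half-site of many nuclear receptors, was in 15 X windows (2.42%), beside 3.52% over the whole list, 5.48% in X flanks and 3.08% of X TSS windows; Gapdh2 is one of them. AGTGCA, which had been searched as a reordered version of that word, is the half-site of the related receptor DAF-12 in Caenorhabditis elegans. It was in 119 X windows (19.2%, exact 95% interval 16.2% to 22.5%), beside 16.2% over the whole list, 15.6% on the autosomes, 12.1% in X flanks and 11.9% of X TSS windows. Among X intron summits it was in 24.0%, and it did not follow rank, with 21.8% in the strongest and 19.4% in the weakest rank group of X peaks. Direct repeats of it spaced by 5 letters were in 0 of 620 X windows. The limit of 3 counts is a share of 0.484%, and the exact 95% upper limit is 0.593%.

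CCACTGT, seen in the bbx, Zw, Tob, mnb and Rtel1 windows, was taken after the data had been seen, as the first of 8171 words of 7 letters (each counted with its reverse complement) by the share at X summits less that in X flanks. Words of 8 and 6 letters, and several single words, had been looked at too, with X and autosomal values side by side, so its place on the X and its lead over the autosomes are descriptions that support nothing. It was in 75 of 620 X windows (12.1%, exact 95% interval 9.63% to 14.9%), beside 8.34% over the whole list and 2.66% in X flanks. On the autosomes, which did not enter that ranking but whose values were seen when the word was taken, it was in 226 of 2987 windows (7.57%, 6.64% to 8.57%) against 2.91% in flanks, and it took place 30 there. All X TSS windows held it in 2.81%, and its density over the whole X was 135.8 per Mb, against 119.2 to 124.9 on the long autosomal arms.

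On the X, from which the word was taken, it was more frequent in the stronger rank groups, without a steady decline. From the strongest to the weakest of 5 rank groups of X peaks it was in 19.4%, 12.1%, 14.5%, 7.26% and 7.26%. The same groups of autosomal peaks held it in 9.21%, 7.04%, 5.85%, 8.71% and 7.02%. Over all X peaks the median signal was 143.6 with the word and 109.0 without it, and the order differed among rank groups. Within the 50 strongest X peaks the median signal was 488.8 with the word and 550.2 without it. Among the 50 strongest X peaks it was in 15, against 6 of the 50 strongest autosomal ones. Ranked by replicate 1 these counts were 14 and 7, and by replicate 3 they were 14 and 9. X intron summits held it in 41 of 208 cases (19.7%) and X promoter summits in 32 of 350 (9.14%), against 10.4% and 6.28% on the autosomes. No pair of the 75 windows shared a run of 20 letters, and 8 windows held it at least 2 times.

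**Figure D4:**
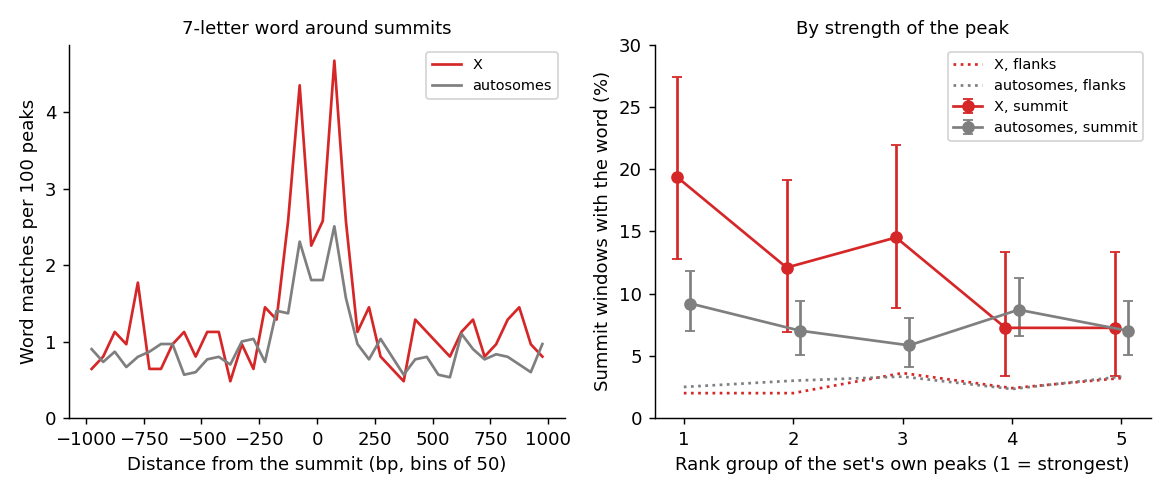
Left: matches of the 7-letter word per 100 peaks (vertical axis) by distance from the summit in bp (horizontal axis, bins of 50 bp) for the X and the autosomes. Right: percentage of summit windows with the word in each rank group of the set's own peaks, with exact 95% intervals, and in flanks (dotted). X matches are most frequent in the bins centred 75 bp to either side of the summit, at 4.35 and 4.68.

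The matches were most frequent a little to the side of the summit and less so on it. Per 100 X peaks there were 4.35 and 4.68 in the bins centred 75 bp to the left and right, and 2.26 and 2.58 in the bins next to the summit. The X bins centred 975 bp away held 0.645 and 0.806. On the autosomes the bins at 75 bp held 2.31 and 2.51, and those next to the summit 1.81 and 1.81. The shorter CCACTG separated summits from flanks less, with 18.5% of X windows against 10.6% of X flanks. AGTGCA was in 10 of the 75 X windows with CCACTGT (13.3%) and in 109 of the 545 without it. GC content was 40.3% in X summit windows and 40.2% in autosomal ones (flanks 42.7% and 43.5%).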

How the data were processed

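Peak lists of Hr96-eGFP ChIP-seq in whole adult female flies were analysed, from 1 group of 2 biological replicates. The authors deposited, per the file headers, peaks called in each replicate and for both together, and the optimal list of peaks passing the irreproducible discovery rate (IDR), in dm6 and dm3. Signal values and the −log10 q-value of each peak are the authors' deposited values, and only signal was used here, to rank peaks within a list. Not given in the sources used here are the aligner, the peak caller, the IDR threshold and the depth of reads, and intervals cover counting error over peaks only.

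Peaks were taken at their summits. All 3607 summits fell within the arm lengths of the reference. Genes came from the Ensembl 115 annotation of BDGP6, without transposable elements, and sequence from RefSeq. Summits were classed in the order promoter (within 500 bp of a TSS), UTR, coding, other exon, intron and intergenic. Replicates were matched at 100 bp. Motifs were searched up to 100 bp to either side of the summit, with flanks of equal length centred 1000 bp away. Shares have exact Clopper-Pearson 95% intervals, and no p-value was computed, since 1 group gives no comparison over samples. A share of 0 is given with the limit of 3 counts. Work was done in Python (3.11.15), with SciPy (1.17.1) for intervals, pandas (2.3.3) and numpy (2.4.6) for tables and matplotlib (3.10.9) for plots, and classing, matching and motif search were tested on simulated data.

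The members, gene lists and motifs were chosen with earlier results of these data known. Genes named are those at the 20 strongest X peaks, the 5 strongest intron and 3 strongest intergenic summits and up to 4 bound members with the strongest peak per list. Genes with the most peaks, those in the longest runs, RpL37-1 and lncRNA:roX1 were named after their values were seen. Of 278 list entries 5 matched no gene.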

Additional observations from a re-analysis of the deposited data

How the results depend on the processing

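No paired analysis was possible because there was only 1 group. Of 80 alternatives over 14 results, 53 stayed within the interval of the reported value. Those 53 include the alternatives that took the strongest 3607 peaks of the authors' longer list for both replicates together. Each of these returned exactly the reported value. They could not move and say nothing about stability. Of 70 alternatives with an autosomal value beside them, 62 kept the X on the same side of the autosomes, again with such fixed ones among them. The 8 others concerned the DRE (3.75% on the X against 4.08% without replicate 1, and 4.83% against 4.96% in the upper 50% of the list), the CTCF core (2.74% against 2.68% in windows of 50 bp to either side) and the CA repeat (5 alternatives, X higher). Leaving out a replicate moved the share of bound X genes to 15.8% to 17.6%, the median distance to 6788 to 10406.5 bp, the CTCF core to 1.73% to 4.75% and the CA repeat to 6.22% to 8.08%.

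With the upper 50% of the list, the X share of its weakest rank group was 17.7%, bound genes 9.79%, the median distance 20464 bp and CCACTGT 16.2%. With a TSS window of 250 bp, promoter, intron and bound-gene shares were 40.5%, 41.6% and 11.2%; with 1000 bp they were 67.4%, 25.6% and 17.1%. Over genes of all kinds 12.9% were bound. In windows of 50 bp to either side the DRE was in 2.74%, the GA repeat in 2.26%, the CA repeat in 2.58% and CCACTGT in 4.35%. With 200 bp to either side the DRE was in 7.90%, the CTCF core in 6.61%, the GA repeat in 9.84%, the CA repeat in 16.6% and CCACTGT in 17.1%. Matching at 50 bp gave 57.4%, at 250 bp 87.7%, and among the strongest 3607 peaks of each replicate 50.5%. Longer windows and wider distances raise these shares by construction. The alternatives for CCACTGT, the intron share of the strongest rank group and CHES-1-like were chosen after the data were seen.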
